A study of Mus musculus with 10 samples.

Results

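Primary granule genes of early neutrophils are described here in sorted bone marrow cells of mice with and without deletion of Ezh2. The 6 genes were Mpo, Elane, Prtn3, Ctsg, Ms4a3 and Hp, out of 20972 genes that could be named on the array. Each was found through the RefSeq accession of its probe, and each had 1 probe. All 6 probes were well above background on all 10 arrays, and none was saturated.

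Primary (azurophil) granules are the first granules a neutrophil makes, at the promyelocyte stage. They store myeloperoxidase and a group of serine proteases that kill microbes after the cell has taken them up. Transcription of their genes starts in granulocyte and monocyte progenitors, under factors such as PU.1, C/EBP alpha, C/EBP epsilon, RUNX1 and MYB, and is largely shut off before the secondary granules, which carry lactoferrin and lipocalin, are made.

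Mpo encodes myeloperoxidase, which makes hypochlorous acid. Elane, Prtn3 and Ctsg encode the serine proteases neutrophil elastase, proteinase 3 and cathepsin G. Ms4a3 encodes a membrane protein with 4 membrane-spanning segments that is made in granulocyte and monocyte progenitors, and Hp encodes haptoglobin, a haemoglobin-binding plasma protein that neutrophils also store in granules. The name primary granule genes is used below for all members as a group. It does not say that Ms4a3 and Hp encode content of primary granules.

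The cells were CD45.2-sorted LSK cells, the lineage-negative, Sca-1+ and c-Kit+ fraction of bone marrow that holds stem cells and early progenitors, from C57BL/6 mice. All cells carried the tamoxifen-inducible Cre transgene Cre-Ert, and all were collected after transplantation and tamoxifen. The Ezh2-deleted cells (KO) were Cre-Ert;Ezh2fl/fl and the wild-type cells (WT) were Cre-Ert alone. At 9-12 months there were 3 KO arrays labelled MDS/MPN (a myelodysplastic and myeloproliferative disease, 1 of them also marked TC and another CMMoL), 2 KO arrays labelled MDS (myelodysplastic syndrome), 1 KO array of undetermined disease, 1 KO array whose label names a mixture of MDS, MDS/MPN and MDS/MPN_TC, and 1 WT array. At 3 months there were 1 KO and 1 WT array, both labelled as having no disease. The promoter that drives Cre-Ert, and whether an array held 1 mouse or a pool, are not given in the sources used here, so p-values measure the spread between these arrays, which may be partly technical.

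The 3-month pair lay on slide 1 and the other 8 arrays on slide 2. Time therefore could not be told apart from slide. Within slide 2 the 3 MDS/MPN arrays and the undetermined array lay on 1 line of the slide. The 2 MDS arrays, the mixed KO array and the WT array lay on another. Disease label and line therefore cannot be told apart. Genotype is partly tied to line in the comparison of KO with WT at 9-12 months. The time labels also conflict between the deposited files. In the deposited value table the columns labelled 9-12 months for WT and for mixed KO carry what the scanner files of slide 1 give, and its 3-month columns carry what the files for WT and mixed KO on slide 2 give. The labels of the scanner files are used below, and results that turn on the time label are also given under those of the value table. The 75th percentile of intensity ranged between 78.3 and 299.5 over the arrays and was highest on MDS/MPN array 2. The LSK markers Ly6a (Sca-1) and Kit were well above background on all 10 arrays, at log2 levels of 4.11 to 5.68 and 3.88 to 5.24. Kit was lower on some KO arrays, at 3.90, 4.12 and 3.88 on the MDS/MPN, 4.11 on the undetermined and 4.12 on the 3-month KO array. It was 5.24 and 5.13 on the MDS and 4.76 on the mixed array, against 5.06 and 5.18 on the WT arrays at 9-12 and 3 months. Ezh2 itself differed by 0.13 ± 0.38 (SE) between KO and WT (limma with slide as a block, adjusted p = 0.997). Its levels were 2.28, 3.36 and 2.25 on the MDS/MPN arrays, 2.29 and 2.14 on the MDS arrays, 2.65 on the undetermined, 2.64 on the mixed and 2.71 on the 3-month KO array, against 2.63 and 2.15 on the WT arrays at 9-12 and 3 months. Whether its probe lies in the deleted part of the gene is not known here, so this level does not check the labels.

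The promoter windows of the members are shown because 4 of the 5 hold the same short motif. RefSeq windows of 300 bases (GRCm38.p6, 250 bases before the gene start and 50 after it, in the direction of the gene) matched 5 of the 6 members by symbol. They were chr11:87793534-87793833 (plus strand) for Mpo, chr10:79886062-79886361 (plus) for Elane, chr10:79879417-79879716 (plus) for Prtn3, chr14:56102525-56102824 (minus) for Ctsg and chr19:11640802-11641101 (minus) for Ms4a3. Capitals mark matches, on either strand, to 5 short motifs: GAGGAAG for PU.1, TGTGGT for RUNX factors, TTGCNNAA for C/EBP factors, AACTG for MYB and TATAAA for the TATA box. The motifs were chosen after the first bases of these windows had been seen.
Mpo: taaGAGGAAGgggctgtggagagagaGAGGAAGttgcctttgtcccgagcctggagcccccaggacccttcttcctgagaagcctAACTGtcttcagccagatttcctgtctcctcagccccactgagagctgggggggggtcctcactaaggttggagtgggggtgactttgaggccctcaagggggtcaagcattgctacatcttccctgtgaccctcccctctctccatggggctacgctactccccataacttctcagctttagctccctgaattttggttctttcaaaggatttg
Elane: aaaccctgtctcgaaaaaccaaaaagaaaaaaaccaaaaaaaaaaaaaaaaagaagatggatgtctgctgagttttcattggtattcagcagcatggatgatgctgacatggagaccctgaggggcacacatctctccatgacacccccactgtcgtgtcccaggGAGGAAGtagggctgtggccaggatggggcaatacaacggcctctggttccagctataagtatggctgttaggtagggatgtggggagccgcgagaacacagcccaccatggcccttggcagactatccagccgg
Prtn3: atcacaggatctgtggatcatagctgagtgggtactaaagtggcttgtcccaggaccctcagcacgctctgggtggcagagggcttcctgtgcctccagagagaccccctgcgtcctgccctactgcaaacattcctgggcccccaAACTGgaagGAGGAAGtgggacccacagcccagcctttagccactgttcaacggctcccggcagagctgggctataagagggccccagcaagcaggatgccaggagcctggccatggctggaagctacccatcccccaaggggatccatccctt
Ctsg: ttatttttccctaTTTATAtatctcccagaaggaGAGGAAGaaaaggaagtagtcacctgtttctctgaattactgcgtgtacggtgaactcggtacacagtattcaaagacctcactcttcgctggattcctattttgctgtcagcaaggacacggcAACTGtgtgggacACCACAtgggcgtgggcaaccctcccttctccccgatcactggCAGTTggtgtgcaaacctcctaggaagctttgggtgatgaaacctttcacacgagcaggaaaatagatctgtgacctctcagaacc
Ms4a3: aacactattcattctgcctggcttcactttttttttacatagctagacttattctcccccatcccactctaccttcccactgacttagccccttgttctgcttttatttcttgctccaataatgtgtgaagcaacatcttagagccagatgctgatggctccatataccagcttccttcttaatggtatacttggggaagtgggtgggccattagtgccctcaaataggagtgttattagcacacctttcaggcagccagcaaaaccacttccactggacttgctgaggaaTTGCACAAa
GAGGAAG was found in the windows of Mpo (2 copies), Elane, Prtn3 and Ctsg, in 4 of 5, against 13.6% of all 32851 windows of that length. It began 85 bases before the start of Elane and 95 bases before that of Prtn3, and in Mpo and Ctsg it lay farther upstream, at 247 and 224 bases and at 216 bases. AACTG was in 3 of 5 windows, against 44.8% of all windows. TGTGGT and TATAAA were each found in 1 of 5, that of Ctsg, against 16.8% and 13.6%. The TATAAA match lay on the opposite strand, 237 to 232 bases before the start of Ctsg. Only exact letters were counted, so TATAAG, which the windows of Elane and Prtn3 hold, was not. These counts therefore do not show which genes have a TATA box. TTGCNNAA was in 1 of 5, that of Ms4a3, against 10.8%. No match overlapped another. These are matches of letters and no measurement of binding. Elane and Prtn3 are neighbours on chromosome 10, Elane starting 3138 bases past the end of Prtn3. Mpo lies on chromosome 11, Ctsg on 14, Ms4a3 on 19 and Hp on 8.

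Levels are given as log2 of the processed signal over the 75th percentile of the same array, so that 1 unit is a 2-fold difference and 0 is the level of that percentile. Levels of different genes come from different probes and are not set against each other. Mpo had levels of 10.49, 9.46 and 10.77 on the MDS/MPN arrays, 9.67 and 9.17 on the MDS arrays, 11.45 on the undetermined, 9.06 on the mixed and 10.62 on the 3-month KO array, against 9.46 on the WT array at 9-12 months and 6.97 on the WT array at 3 months. The undetermined array was highest and the 3-month WT array stood well below the other 9. The KO arrays overlapped the 9-12 month WT array, which lay between MDS array 1 and MDS array 2.

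Elane had levels of 6.49, 5.65 and 7.30 on the MDS/MPN arrays, 6.49 and 4.64 on the MDS arrays, 7.94 on the undetermined, 3.79 on the mixed and 6.09 on the 3-month KO array, against 4.77 and 2.64 on the WT arrays at 9-12 and 3 months. MDS array 2 and the mixed array lay below the 9-12 month WT array, and the other 5 KO arrays of slide 2 above it. Prtn3 had levels of 6.53, 5.97 and 7.22 on the MDS/MPN arrays, 6.07 and 5.18 on the MDS arrays, 7.28 on the undetermined, 4.59 on the mixed and 5.86 on the 3-month KO array, against 5.36 and 4.89 on the WT arrays at 9-12 and 3 months. The order of the arrays was close to that of Elane, except that the mixed array was the lowest of all 10.

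Ctsg had levels of 10.29, 8.51 and 10.81 on the MDS/MPN arrays, 9.19 and 8.66 on the MDS arrays, 10.31 on the undetermined, 7.95 on the mixed and 10.02 on the 3-month KO array, against 8.32 and 6.59 on the WT arrays at 9-12 and 3 months. Each KO array but the mixed one lay above the WT array of its slide. Ms4a3 had levels of 7.31, 4.94 and 8.06 on the MDS/MPN arrays, 5.69 and 4.40 on the MDS arrays, 7.40 on the undetermined, 3.06 on the mixed and 6.23 on the 3-month KO array, against 3.91 and 1.92 on the WT arrays at 9-12 and 3 months. Hp had levels of 6.23, 4.74 and 7.64 on the MDS/MPN arrays, 5.50 and 4.82 on the MDS arrays, 6.86 on the undetermined, 2.44 on the mixed and 6.08 on the 3-month KO array, against 3.43 and 1.59 on the WT arrays at 9-12 and 3 months. For Ms4a3 and Hp too, each KO array but the mixed one lay above the WT array of its slide. Over all features, 6.69% had every KO array but the mixed one above the WT array of its slide, a pattern named after the member values had been seen.

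The local background of the single spot was flagged as an outlier for Ms4a3 on both slide 1 arrays and for Prtn3 on the 3-month KO array. Those 3 values are printed above, but were left out of the fits below unless stated.

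**Figure D1:**
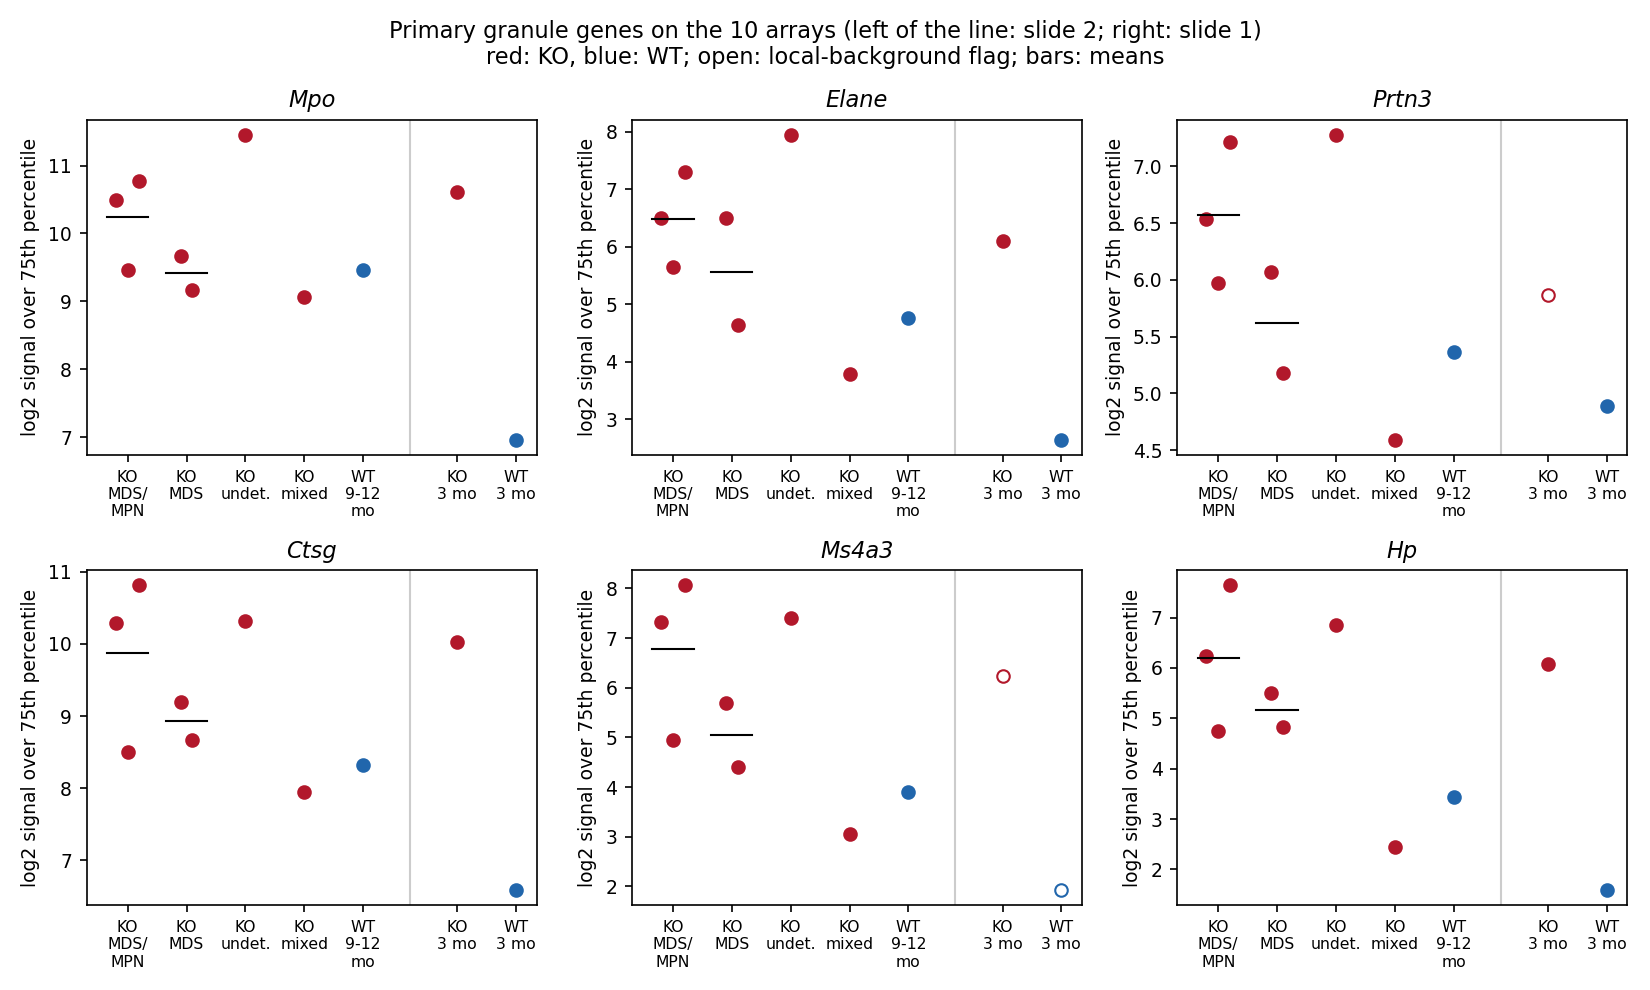
Level (log2 signal over the 75th percentile of the array, y axis) of the 6 genes by group (x axis), 1 point per array, with KO in red and WT in blue. Horizontal bars are means of groups with more than 1 array, open points had a flagged local background, and the line separates slide 2 (left) from slide 1 (right). The 3-month WT array is lowest for all but Prtn3, and the mixed KO array lies below the 9-12 month WT array in every panel.

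Over both slides, all 6 genes had higher estimates in KO than in WT, and none passed the test. The estimates over 8 KO and 2 WT arrays, with slide as a block, were 1.67 ± 0.78 (log2, ± SE) for Mpo, 2.07 ± 1.02 for Elane, 1.93 ± 0.82 for Ctsg and 2.92 ± 1.18 for Hp. Adjusted p-values (limma, Benjamini-Hochberg over 22185 features) were 0.919, 0.966, 0.869 and 0.834. In folds these estimates are 3.19, 4.19, 3.80 and 7.59. Prtn3 differed by 0.76 ± 0.90 (limma adjusted p = 0.979) and Ms4a3 by 1.93 ± 1.59 (limma adjusted p = 0.977), both resting on slide 2 alone, with 7 KO arrays and 1 WT array. With its flagged spots kept, Ms4a3 differed by 2.79 ± 1.26 (limma adjusted p = 0.898).

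The 2 slides contributed unequally to these estimates. Without the 3-month KO or the 3-month WT array, which leaves slide 2, the estimates were 0.54 for Mpo, 1.28 for Elane, 1.07 for Ctsg and 2.03 for Hp. Without the 9-12 month WT array, which leaves the 3-month pair of 1 array against 1, they were 3.65 for Mpo, 3.45 for Elane, 3.43 for Ctsg and 4.49 for Hp. None passed the test in either case.

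The background of that comparison was 0% of features called, in either direction, with 1218 at an unadjusted p under 0.05. The members' count of 0 called is thus that of all features. A positive estimate was found in 53.4% of all features, and an estimate of at least 2-fold higher in 3.35%, against 5 of the 6 genes. The median estimate was 1.93 over the 6 genes and 0.04 over all features.

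At 9-12 months, the 6 individually coded KO arrays had higher means than the single WT array for all 6 genes, and none passed the test. Mpo averaged 10.17 ± 0.88 (SD, n = 6) in KO and 9.46 in WT. The corresponding KO values were 6.42 ± 1.17 for Elane, 6.37 ± 0.80 for Prtn3 and 9.63 ± 0.97 for Ctsg, against WT values of 4.77, 5.36 and 8.32. Those of Ms4a3 and Hp were 6.30 ± 1.50 and 5.97 ± 1.16 in KO, against 3.91 and 3.43 in WT. The SD among the KO arrays exceeded the difference for Mpo and was smaller than it for the other 5 genes.

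The estimates were 0.70 ± 0.80 for Mpo, 1.65 ± 1.03 for Elane, 1.01 ± 0.75 for Prtn3, 1.31 ± 0.87 for Ctsg and 2.39 ± 1.28 for Ms4a3 (SE, limma adjusted p = 0.9996 for each). Hp had the largest estimate of the 6, 2.54 ± 1.01 (limma adjusted p = 0.877). The single WT array is assumed in this fit to vary like the KO arrays. Of 19504 features tested, 0% were called higher and 0.559% lower. A positive estimate was found for 49.6% of them and one of at least 2-fold higher for 4.35%, against 6 and 5 of the 6 genes. All 6 KO arrays lay above the WT array for Ctsg, Ms4a3 and Hp, against 9.44% of all features. For Elane and Prtn3 5 of the 6 did so, and for Mpo 4 of the 6, MDS/MPN array 2 being 0.01 and MDS array 2 being 0.30 below the WT array.

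These estimates depend on which WT array is that of 9-12 months. Under the time labels of the value table it is the array of slide 1, and the same 6 KO arrays then differed from it by 3.21 ± 0.80 for Mpo, 3.79 ± 1.02 for Elane, 1.50 ± 0.75 for Prtn3, 3.05 ± 0.87 for Ctsg, 4.39 ± 1.27 for Ms4a3 and 4.39 ± 1.01 for Hp (SE). None passed the test there either, with limma adjusted p-values between 0.106 (Hp) and 0.387 (Prtn3), while 0.17% of features were called higher and 0.39% lower. In that comparison KO and WT lie on different slides, so slide and genotype cannot be told apart.

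MDS/MPN arrays averaged higher than MDS arrays for all 6 genes, by less than the spread allowed to be called. Ms4a3 averaged 6.77 ± 1.63 (SD, n = 3) in MDS/MPN and 5.04 ± 0.91 (n = 2) in MDS. Its estimate was 1.73 ± 0.996, and those of the other 5 genes were between 0.82 (Mpo) and 1.04 (Hp), with limma adjusted p = 0.987 for each. In level, MDS/MPN array 2 was below MDS array 1 for all 6 genes, so on this scale the groups overlapped for each of them. Over all features, 7.84% had all MDS/MPN arrays above both MDS arrays. By rank of intensity among the probes of an array, counted from the brightest, MDS/MPN array 2 stood above MDS array 1 for Mpo (130 against 344), Ctsg (390 against 491) and Prtn3 (1518 against 1742). It stood below by rank for Elane (1740 against 1470), Ms4a3 (2424 against 2050) and Hp (2642 against 2219). Over 20416 features 0% were called, with 914 at an unadjusted p under 0.05. Positive estimates made up 49.2% of them and estimates of at least 2-fold higher 3.6%, against 6 and 2 of the 6 genes.

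The 3-month pair, 1 array against 1, allowed no test. The KO array was 12.6-fold above the WT array for Mpo, 10.9-fold for Elane, 10.8-fold for Ctsg and 22.4-fold for Hp, as values. Prtn3 stood 1.97-fold and Ms4a3 19.8-fold higher with their flagged spots. Over all features tested, 12.6% were at least 2-fold higher on this KO array, 61.7% were higher at all, and the median difference was 0.22 (log2). These folds rest on a WT array that was the lowest of the 10 for 5 of the 6 genes, against 16.6% of all features. Under the time labels of the value table this pair would be the WT and mixed KO arrays of 9-12 months, and the pair of the next paragraph that of 3 months.

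The mixed KO array went the other way. It stood below the 9-12 month WT array by 0.40 for Mpo, 0.98 for Elane, 0.77 for Prtn3, 0.38 for Ctsg, 0.85 for Ms4a3 and 0.99 for Hp (log2, 1 array against 1, no test). It was also below each of the 6 individually coded KO arrays for all 6 genes, as were 7.42% of features. In 5.04% of features it was below those 6 and the 9-12 month WT array, as it was for each of the 6 genes. Both patterns were named after the values had been seen. Over all features, this array and the 9-12 month WT array were the closest pair of the 10, with an SD of 0.44 between their log2 levels. No member was 2-fold lower, against 4.27% of features, and 53.8% of features were higher on the mixed array, against 0 of the 6 genes.

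**Figure D2:**
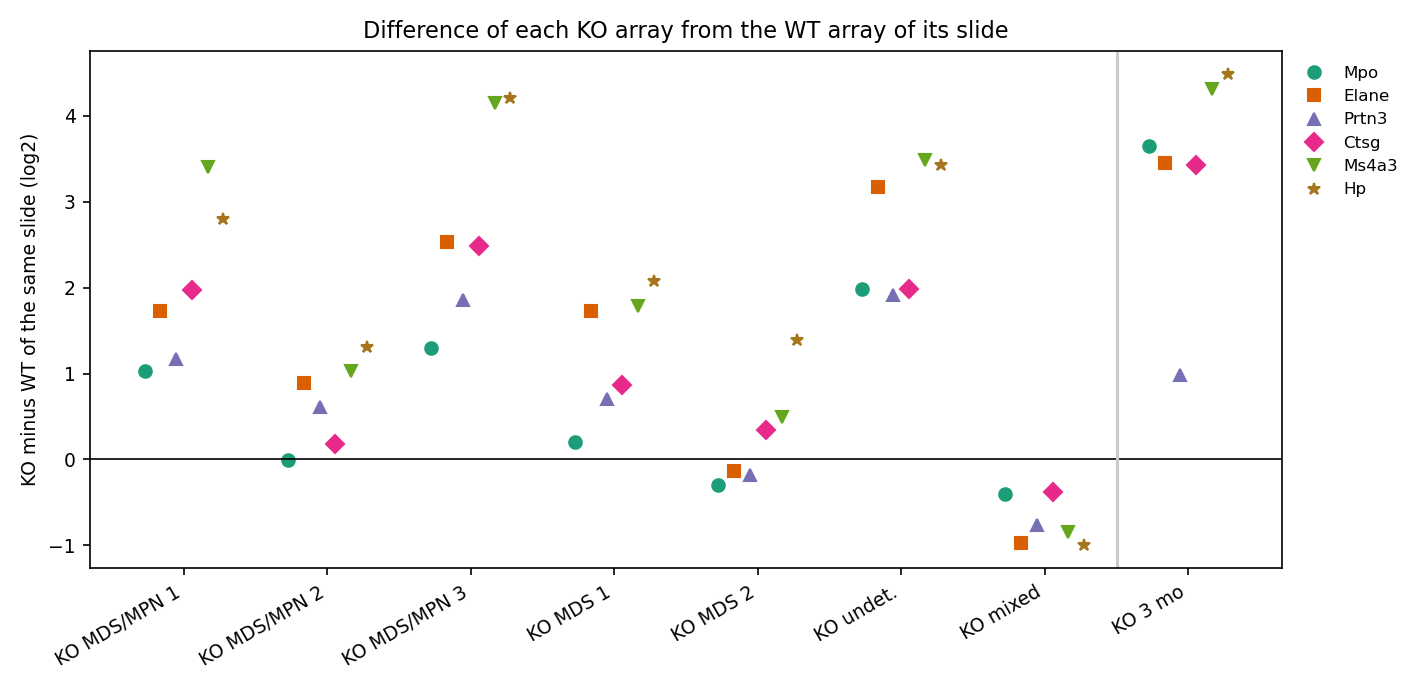
Difference of each KO array (x axis) from the WT array of its slide (log2, y axis), 1 symbol per gene. The line separates slide 2 from the 3-month array of slide 1. The symbols of the mixed array all lie below 0, those of the 3-month array all above it, and Hp or Ms4a3 is the highest symbol on every array other than the mixed one.

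The KO difference at 9-12 months minus that at 3 months was -2.95 ± 1.33 for Mpo, -1.79 ± 1.69 for Elane, -2.13 ± 1.44 for Ctsg and -1.95 ± 1.67 for Hp (SE, limma adjusted p = 0.99999 for each). Prtn3 and Ms4a3 could not be fitted without their flagged spots, and with them gave 0.02 ± 1.24 and -1.93 ± 2.10 (limma adjusted p = 0.99997 for both). The background was 0% called of 21955 features, with 1102 at an unadjusted p under 0.05, and 38.2% were positive, against 0 of these 4 genes. Under the time labels of the value table the sign is the other way, at 3.62 for Mpo, 4.78 for Elane, 3.44 for Ctsg and 5.39 for Hp, and no member passed the test there either.

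The 6 genes varied together over the arrays. Pairwise Pearson r over the 10 arrays, a description of points that share slide and scaling, was between 0.81 (Mpo and Prtn3) and 0.98 (Ctsg and Ms4a3), and over the 8 arrays of slide 2 between 0.84 (Mpo and Hp) and 0.99 (Ctsg and Ms4a3). Centred on each gene's own mean, the average of the 6 was highest on MDS/MPN array 3 (1.89), the undetermined array (1.79) and MDS/MPN array 1 (1.15). It was lowest on the 3-month WT array (-2.65), the mixed KO array (-1.60) and the 9-12 month WT array (-0.87).

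Among 11565 named genes, the 8 with the most similar course over the 10 arrays were Cldn15 (r = 0.985), Ly6e (0.982), Alas1 (0.981), Trem3 (0.981), 0610040J01Rik (0.976), Prss57 (0.975), Dok3 (0.974) and Aif1 (0.973). Prss57 encodes another serine protease of primary granules, and Alas1 the first enzyme of haem synthesis, haem being the cofactor of myeloperoxidase. The 4 genes with the most opposite course were Mynn (-0.953), Exoc3 (-0.953), Sesn3 (-0.945) and Cd200 (-0.945).

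Other primary granule and processing genes did not move as 1 block. None of the 13 tested passed in any comparison, 9 had positive estimates in KO against WT over both slides, and the median was 0.23, against 0.04 over all features. Prss57 had levels of 2.62, 2.23 and 3.25 on the MDS/MPN arrays, 2.15 and 1.67 on the MDS arrays, 3.33 on the undetermined, 1.56 on the mixed and 2.67 on the 3-month KO array, against 1.65 and 0.97 on the WT arrays at 9-12 and 3 months. Its order of arrays was close to that of the members. Cst7, an inhibitor of cathepsins (cystatin F), differed by 2.12 ± 0.62 (limma adjusted p = 0.618) and Cd63, a granule membrane protein, by -1.10 ± 0.50 (limma adjusted p = 0.913). Bpi, a bactericidal protein of primary granules in humans, and Clec5a were not well above background on any of the 10 arrays.

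Of 15 transcription factors of granulocyte and monocyte progenitors, none passed and 14 had positive estimates, with a median of 0.50. Cebpe, which drives the step from promyelocyte to later stages, had levels of 3.85, 3.66 and 5.28 on the MDS/MPN arrays, 3.14 and 1.64 on the MDS arrays, 4.44 on the undetermined, 1.28 on the mixed and 3.07 on the 3-month KO array, against 0.69 and 0.19 on the WT arrays at 9-12 and 3 months. All 8 KO arrays, the mixed one included, lay above both WT arrays, as did 3.26% of features. Its estimate was 2.73 ± 0.96 (limma adjusted p = 0.705). Irf8, which favours monocytes over neutrophils, differed by 1.55 ± 0.63, Cebpa by 1.20 ± 0.57, Gfi1, a repressor needed for neutrophils, by 0.73 ± 0.38 and Spi1, which encodes PU.1, by 0.67 ± 0.47 (SE, limma adjusted p = 0.835, 0.941, 0.972 and 0.977). Runx1 and Myb differed by 0.15 ± 0.48 and 0.16 ± 0.29 (limma adjusted p = 0.997 and 0.992).

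A list of 12 genes held growth factor receptors together with the Fc receptors Fcgr3 and Fcgr2b and the surface marker Cd34. None of the 12 passed and 8 had positive estimates, with a median of 0.51. Fcgr3, an Fc receptor of granulocyte and monocyte progenitors, differed by 2.34 ± 0.79, and Csf2rb, the shared chain of the GM-CSF, IL-3 and IL-5 receptors, by 1.63 ± 0.59 (limma adjusted p = 0.673 and 0.727). Csf3r, the G-CSF receptor, differed by -0.01 ± 0.27 (limma adjusted p = 0.9999).

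Secondary and later granule genes had another order of arrays than the primary granule genes. That name is used for the list as a group. It does not say that each gene of it, such as S100a8, S100a9, Padi4 or Cxcr2, encodes granule content. Over the 13 of this list that were well above background on at least 5 arrays, the median difference from the WT array of the slide was 0.82, 3.63 and 4.02 on the MDS/MPN arrays, 1.19 and 1.91 on the MDS arrays, 2.16 on the undetermined, 0.47 on the mixed and -0.14 on the 3-month KO array. For the 6 primary granule genes the same medians were 1.85, 0.75 and 2.51 on the MDS/MPN arrays, 1.30 and 0.11 on the MDS arrays, 2.58 on the undetermined, -0.81 on the mixed and 3.55 on the 3-month KO array. The primary granule genes had the higher median on the 3-month KO array, MDS/MPN array 1, MDS array 1 and the undetermined array. On MDS/MPN arrays 2 and 3, MDS array 2 and the mixed array the later granule genes did. The rank of the 3-month array depends on its WT array. That array was higher than the 9-12 month WT array by a median of 1.70 over the 13 later granule genes, while for the 6 primary granule genes the median difference was -1.91. S100a8, a calcium-binding protein of mature neutrophils, had a level of 4.47 on the 3-month KO array, against 4.26 on its own WT array and 1.06 on the WT array of 9-12 months. In the value table the slide 1 arrays carry the labels of 9-12 months. The difference between the lists was not tested.

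Lcn2, which encodes lipocalin 2 of secondary granules, had levels of 2.60, 3.48 and 4.69 on the MDS/MPN arrays, 2.73 and 2.09 on the MDS arrays, 2.39 on the undetermined, -1.01 on the mixed and 2.22 on the 3-month KO array, against -1.48 and 0.22 on the WT arrays at 9-12 and 3 months. Its estimate at 9-12 months was 4.48 ± 0.86 (limma adjusted p = 0.0792), the lowest adjusted p of the list, and none of the 16 tested genes of the list passed. Of these 16, 12 had positive estimates, against 49.6% of all features. Padi4 (-1.43), Cxcr2 (-1.08), Itgam (-0.34) and Anxa1 (-0.33) went the other way.

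**Figure D3:**
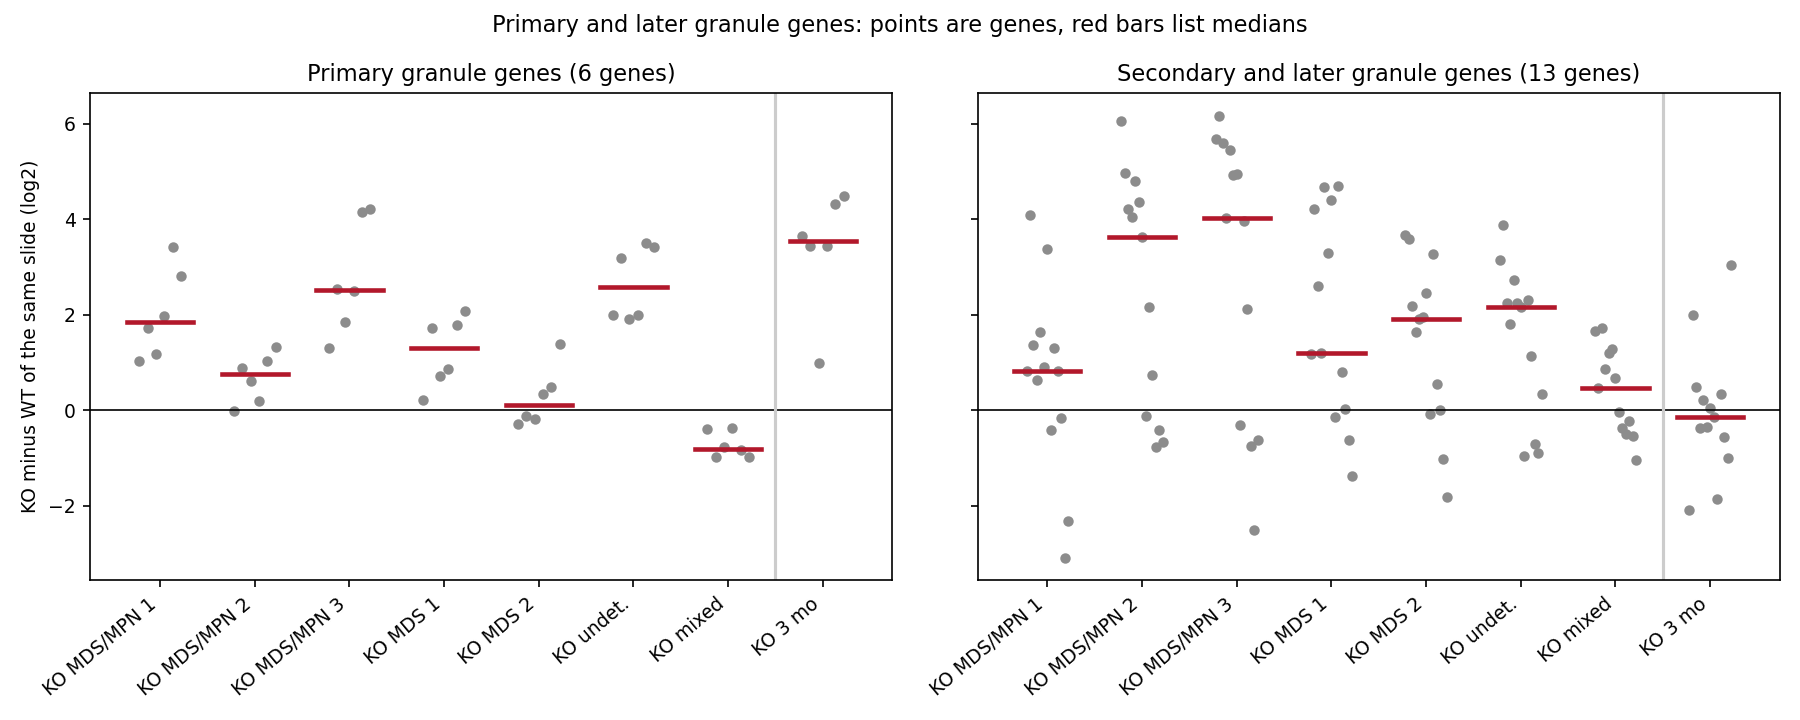
Difference of each KO array from the WT array of its slide (log2, y axis) by array (x axis). Shown are the 6 primary granule genes (left) and 13 genes of the secondary and later granule list (right). Points are genes and red bars the list medians, 3.55 and -0.14 on the 3-month array and 0.75 and 3.63 on MDS/MPN array 2.

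Markers of other cell types had positive estimates in some lists and not in others. In KO against WT over both slides, with 0% of all features called, no marker passed the test. Positive estimates were found for 9 of 9 monocyte and macrophage markers tested (median 1.78), 9 of 9 mast cell and basophil markers (2.49), 9 of 11 erythroid markers (2.40) and 6 of 6 B cell markers (1.55). They were found for 6 of 9 T and NK cell markers (0.16), 3 of 6 megakaryocyte markers (0.13) and 2 of 8 eosinophil markers (-0.31). F13a1, a monocyte marker, differed by 2.48 ± 0.84, Mcpt8, a basophil protease, by 1.73 ± 0.71 and Klf1, an erythroid factor, by 3.56 ± 1.52 (SE, limma adjusted p = 0.673, 0.837 and 0.869). Of 13 stem and LSK markers 4 had positive estimates, with a median of -1.14, and Procr and Esam differed by -2.54 ± 1.03 and -2.33 ± 0.79 (limma adjusted p = 0.837 and 0.673). Of the cell cycle genes 18 of 18 had positive estimates, with a median of 0.61.

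The lists differed in how closely they followed the members across arrays. The median r with the mean of the 6 genes was 0.89 for monocyte and macrophage markers (9 genes), 0.74 for cell cycle genes (17), 0.74 for mast cell and basophil markers (9), 0.67 for erythroid markers (10), 0.49 for megakaryocyte markers (5), 0.44 for B cell markers (6), 0.28 for later granule genes (13) and 0.26 for T and NK cell markers (9). It was -0.68 for stem and LSK markers (12) and -0.23 for eosinophil markers (8). Among all 11565 named genes, an r of 0.89 (Csf1r) ranked 299 from the highest and an r of 0.74 (Ccnb1) ranked 1808. In a bulk sample, more cells of a type and more RNA per cell cannot be told apart, and the part of these markers in the levels of the 6 genes was not tested.

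**Figure D4:**
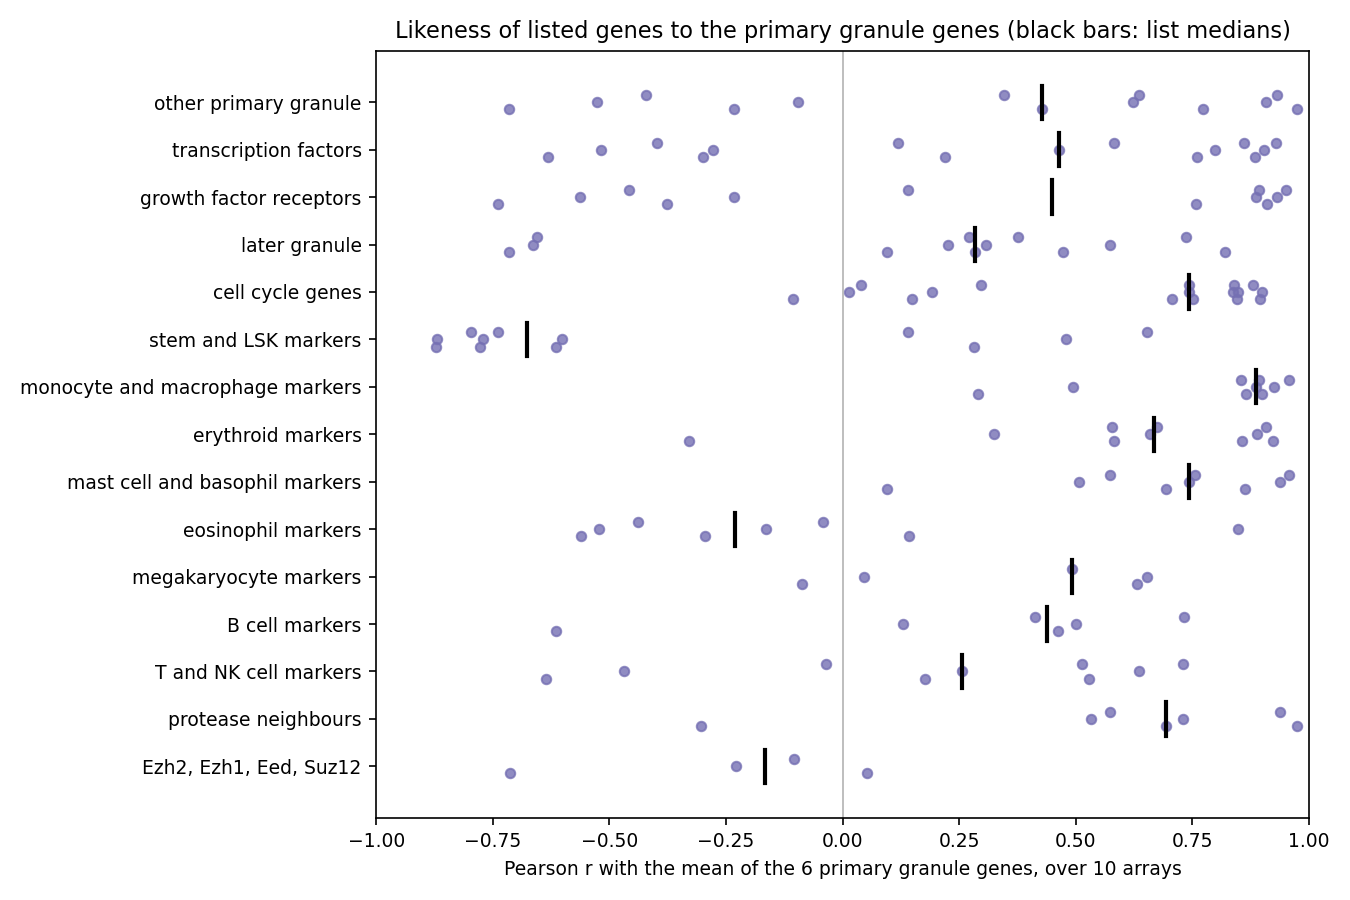
Pearson r of listed genes with the mean of the 6 primary granule genes over the 10 arrays (x axis), by list (y axis). Points are genes well above background on at least 5 arrays and black bars list medians, highest for monocyte and macrophage markers (0.89) and lowest for stem and LSK markers (-0.68).

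Neighbours of the protease genes followed the members to differing degrees. Over the 7 neighbours well above background on at least 5 arrays, the median r with the mean of the 6 genes was 0.69. Single genes had r of 0.975 (Prss57), 0.94 (Mcpt8), 0.73 (Gzmb), 0.69 (Cma1), 0.57 (Mcpt4) and 0.53 (Cma2). Med16, beside Cfd on chromosome 10, had the only negative r of this list, -0.30. Cfd, which encodes complement factor D and follows Elane, differed by 1.46 ± 0.50 in KO against WT (limma adjusted p = 0.677), but was well above background on only 4 of the 10 arrays.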

How the data were processed

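RNA of 10 samples was measured on 10 one-colour Agilent arrays, 1 per sample, from 0.02 µg of RNA labelled with Cy3. The deposited intensity values are processed signals, background-subtracted and detrended by Agilent Feature Extraction 10.7.1.1, per the file headers (9.1 per the submitters' processing notes). The deposited value table holds a ratio, the processed signal averaged per probe over a scale of each array close to its 75th percentile. This was found by setting its columns against the scanner files, and its time labels differ from theirs for 4 arrays.

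From the scanner files, control spots and spots with an outlier flag were left out, spots of a probe averaged, log2 signals set against the 75th percentile of the array, and the brightest probe kept per gene. Accessions gave names for 27656 of 29123 RefSeq probes. Features entered a test when 50% or more of the arrays in any compared group showed them well above background. Tests used limma 3.58.1 in R 4.3.3 (lmFit, eBayes, Benjamini-Hochberg over all features, threshold 0.05), and were tested on simulated data. Without replicates, differences are given as values. The number of arrays limits precision. Every member was named, with listed genes past the threshold or, failing that, up to 4 with the largest differences, any granule, factor or receptor gene of the lists, and the 8 most and 4 least similar genes. Neighbours of the protease genes were also named, outside this rule. No gene of any list, printed or not, was called in a tested comparison. The members and lists were chosen with earlier results of these data known. Alternatives were other scalings, filters, probe summaries, eBayes settings, array sets, left-out arrays and the value table.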

Additional observations from a re-analysis of the deposited data

Results flagged for a closer look

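The difference between KO and WT had opposite signs in the mixed pair of 9-12 months and in the 3-month pair for each of the 6 genes, with 1 array on each side, so the difference between the pairs was not tested. The mixed KO array minus its WT array, less the 3-month KO array minus its WT array, was -4.05 (log2) for Mpo, -4.42 for Elane, -1.75 for Prtn3, -3.81 for Ctsg, -5.16 for Ms4a3 and -5.48 for Hp. The values for Prtn3 and Ms4a3 rest on spots with a flagged local background. The pairs lie on different slides, and their time labels are exchanged in the value table, so slide, time and disease label cannot be told apart. No array stood apart from its group by Dixon's test in a group of 4 to 10 arrays.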

How the results depend on the processing

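No member passed the threshold under any setting tried. Over all settings, KO against WT over both slides ranged between 0.54 and 3.65 for Mpo, 1.28 and 3.45 for Elane, 0.56 and 1.09 for Prtn3, 1.07 and 3.43 for Ctsg, 1.56 and 2.79 for Ms4a3 and 2.03 and 4.49 for Hp. At 9-12 months the range was between -0.047 and 3.21 for Mpo, 0.80 and 3.79 for Elane, 0.26 and 1.50 for Prtn3, 0.60 and 3.05 for Ctsg, 1.14 and 4.39 for Ms4a3 and 1.73 and 4.39 for Hp, the lowest with MDS arrays alone and the highest with the value table and its labels. Of 420 values of single genes under the alternatives, 18 changed sign and a further 34 moved by over 1.5 times in the same direction. Of 68 counts of calls, 47 stayed within 1.5 times and 21 did not. The count of calls in KO against WT over both slides, 0 in the main setting, was 6 with quantile normalization, 7 with the 75th percentile over probes well above background on all arrays, 2 with normexp (added after seeing the data), and between 0 and 166 when 1 array was left out, with 143 without the 3-month KO array, 166 without the 3-month WT array and 6 without MDS/MPN array 2. At 9-12 months the count of 109 was 242 with quantile normalization, 195 with the percentile over detected probes, 51 with no filter, 170 with the mixed array added to KO, and 0 with features well above background on every array, with trend and robust eBayes, with MDS arrays alone and with both WT arrays as 1 group. Without 1 KO array it was between 0 and 205, with 0 without MDS array 1 or MDS/MPN array 3, 4 without MDS array 2, 13 without the undetermined array and 205 without MDS/MPN array 2. The difference between the times gave 177 calls with quantile normalization and 2 with the value table and its labels. The cause of these changes was not tested.

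Signs turned for Mpo with MDS arrays alone against WT (-0.047) and for Elane in MDS/MPN against MDS, which ranged between -0.010 (without MDS array 2) and 1.84 (without MDS array 1). With the exchanged labels of the value table, the difference between the times was 3.62 for Mpo, 4.78 for Elane, 3.44 for Ctsg and 5.39 for Hp, and the 3-month difference was -0.41 for Mpo, -0.99 for Elane, -0.78 for Prtn3, -0.39 for Ctsg, -0.86 for Ms4a3 and -1.003 for Hp, because those columns hold other arrays. For the same reason the mixed pair, negative in the scanner files, was 3.66 for Mpo, 3.46 for Elane, 0.99 for Prtn3, 3.44 for Ctsg, 4.32 for Ms4a3 and 4.497 for Hp. No paired analysis was possible because the labels give no replicate numbers that link arrays of different groups. Normexp on mean signals was planned and not run. The single WT array per time limits each comparison.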
